A study of Mus musculus with 9 samples.

Results

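The Myc locus was examined on mouse chromosome 15, in the mm9 window from 61700000 to 63800000. This window of 2.1 Mb holds Myc, at about 61.82 Mb, and the region about 1.7 Mb downstream where distal blood enhancers lie. Every peak of the 8 peak lists that overlapped the window by at least 1 bp was taken, which gave 221 of 182249 peaks (0.121%). Merged where they overlapped, these peaks formed 70 regions, of 60709 such regions over all chromosomes. The window was set by position and not by any measured value, though with earlier results of these data known.

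The lists came from chromatin immunoprecipitation and sequencing in MLL-AF9 cells, which are c-kit+ bone marrow cells of C57BL/6 mice transformed with the leukaemia fusion oncogene MLL-AF9. All cells, controls included, had also been transduced with pMIG-TGIF1-ER, which makes TGIF1 fused to an estrogen receptor part that 4-hydroxytamoxifen (4-OHT) activates. The 4 groups were TGIF1 in cells given 4-OHT for 20 h, TGIF1 in cells given ethanol (EtOH), MEIS1 in cells given 4-OHT for 20 h and MEIS1 in cells given EtOH, with 2 libraries each. The TGIF antibody may see both the cells' own TGIF1 and the introduced fusion, and no group had 4-OHT without TGIF1-ER. The effects of 4-OHT and of active TGIF1-ER therefore cannot be told apart. The labels do not say if both libraries of a group stem from separate cultures, so p-values measure only the spread between these libraries, which may be technical. An IgG precipitation, the 9th sample, was not analysed here, and peak positions do not allow a check of cell identity by marker genes.

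Myc encodes a transcription factor that drives growth and division, and it is needed by MLL-AF9 leukaemia cells. In blood cells its transcription depends on a cluster of enhancers far downstream, past the non-coding gene Pvt1 and a long stretch with few genes. TGIF1 is a homeodomain repressor and MEIS1 a homeodomain activator of the same TALE class. Both recognise similar short DNA motifs, and MEIS1 is a partner of HOX proteins in leukaemia. In the RefSeq gene table of the GRCm38.p6 assembly, Pvt1 follows Myc directly. The 4 coding genes between Myc and Cyrib are Gsdmc, Gsdmc2, Gsdmc3 and Gsdmc4, of the gasdermin C family. That assembly is not the build of the peaks, so no peak was assigned to any of these genes by coordinates.

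The lists gave positions, lengths and summits but no read numbers, so depth was unknown and peak length was the only measure of size. Lists ranged from 592 to 48829 peaks. Within each antibody and treatment 1 library had a longer list than the other, and this difference touches every count that follows.

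TGIF1 peaks in the window were more numerous in either induced library than in either EtOH library, but so were the peaks of the lists as a whole. In TGIF1 4-OHT 10 and 31 peaks fell in the window, and in TGIF1 EtOH 2 and 0. The means were 20.5 ± 14.8 in TGIF1 4-OHT and 1.00 ± 1.41 in TGIF1 EtOH (SD, n = 2 each). The difference of 19.5 peaks had p = 0.333 in a two-sided exact permutation test, the smallest value that 2 against 2 libraries allow. Leaving out single libraries gave differences from 9 without TGIF1 4-OHT replicate 2 to 30 without TGIF1 4-OHT replicate 1.

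Set against list length, the TGIF1 contrast was less clear. The window took 0.824 and 1.15 of every 1000 peaks in the TGIF1 4-OHT lists, and 0.724 and 0 of every 1000 in the TGIF1 EtOH lists. The means were 0.987 ± 0.232 in TGIF1 4-OHT and 0.362 ± 0.512 in TGIF1 EtOH (SD, n = 2 each), and the groups did not overlap (difference 0.626 per 1000, two-sided exact permutation p = 0.333). The difference was 0.987 without TGIF1 EtOH replicate 1 and 0.264 without TGIF1 EtOH replicate 2, whose 592 peaks with none in the window still allow up to 5.07 per 1000 (3 counts of the total, counting error only). That limit lies above the value of every other library. With these list lengths the TGIF1 EtOH share of the window is thus known only loosely.

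MEIS1 peaks did not separate by treatment. The window had 36 and 58 peaks in MEIS1 4-OHT, against 33 and 51 in MEIS1 EtOH. The means were 47 ± 15.6 in MEIS1 4-OHT and 42 ± 12.7 in MEIS1 EtOH (SD, n = 2 each). The difference of 5 peaks was smaller than the spread between libraries (two-sided exact permutation p = 0.667), and its sign changed with the library left out. It came to 16 if MEIS1 4-OHT replicate 1 was left out, to -6 if MEIS1 4-OHT replicate 2 was, to -4 for MEIS1 EtOH replicate 1 and to 14 for MEIS1 EtOH replicate 2. Per 1000 peaks of the list, the window took 1.70 and 1.19 in MEIS1 4-OHT and 1.26 and 1.17 in MEIS1 EtOH. This difference of 0.230 per 1000 (two-sided exact permutation p = 0.667) rested on MEIS1 4-OHT replicate 1. It was -0.026 with that library left out and 0.487 with MEIS1 4-OHT replicate 2 left out.

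**Figure D1:**
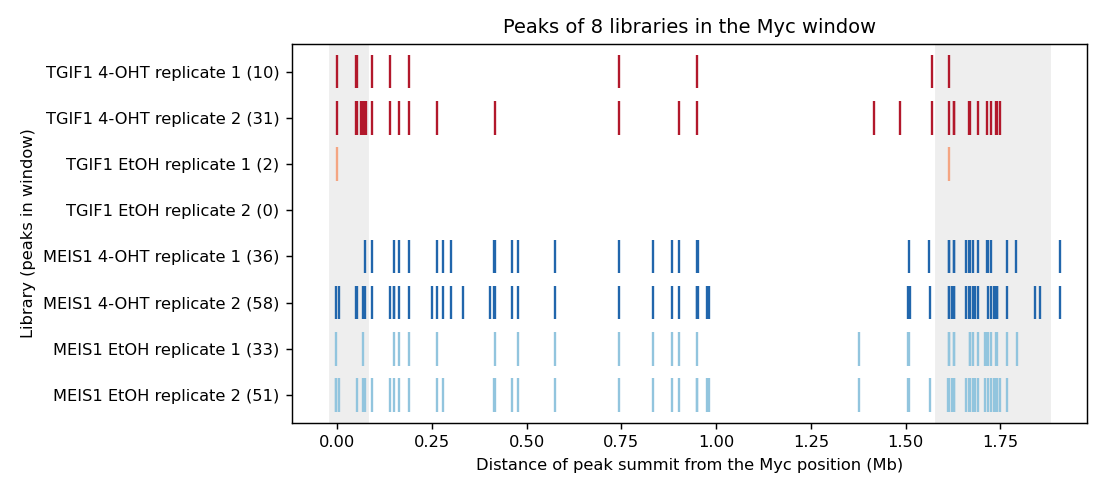
Summits of all peaks in the window, by library (rows, with the number of peaks) and distance from the Myc position (x axis, Mb); grey marks the 100-kb bin of Myc and the distal block of 3 bins. The TGIF1 4-OHT libraries show 10 and 31 peaks, the TGIF1 EtOH libraries 2 and 0, and MEIS1 peaks crowd in the distal block.

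Peaks in the window were about as long as those of the lists they came from. The median lengths were 419 and 515 bp in TGIF1 4-OHT (438 and 567 bp over the whole lists), and the 2 TGIF1 EtOH peaks, both of replicate 1, had a median of 219 bp (283 bp). MEIS1 medians were 450.5 and 598 bp under 4-OHT (442 and 571 bp) and 371 and 627 bp under EtOH (362 and 633 bp). In both treatments the MEIS1 peaks of replicate 2 were the longer ones.

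Repeats within a group were close to complete in 1 direction. Of the peaks of TGIF1 4-OHT replicate 1, 10 of 10 overlapped a replicate 2 peak (96.5% over the whole list), while 10 of the 31 replicate 2 peaks (32.3%, against 41.4% over the whole list) overlapped a replicate 1 peak. For MEIS1 4-OHT 35 of 36 replicate 1 peaks (97.2%, against 95.7% over the whole list) were repeated in replicate 2, and 34 of 58 replicate 2 peaks (58.6%, against 40.7%) in replicate 1. For MEIS1 EtOH 32 of 33 replicate 1 peaks (97.0%, against 90.8%) were repeated in replicate 2, and 29 of 51 replicate 2 peaks (56.9%, against 52.3%) in replicate 1. Neither of the 2 TGIF1 EtOH replicate 1 peaks was repeated, in a list where 16.9% were. The shorter list was in each other group nearly a subset of the longer one.

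By 100-kb bin, MEIS1 was densest over the distal enhancer region and TGIF1 beside Myc. The bin from 63.4 to 63.5 Mb held 8 and 9 MEIS1 4-OHT peaks and 7 and 9 MEIS1 EtOH peaks. The next bin, to 63.6 Mb, held 5 and 9 MEIS1 4-OHT peaks and 8 and 12 MEIS1 EtOH peaks. No other bin of the window had more than 6 in any MEIS1 library. Induced TGIF1 was densest in the bin of Myc, from 61.8 to 61.9 Mb, with 3 and 8 peaks in TGIF1 4-OHT and 1 and 0 in TGIF1 EtOH. In TGIF1 4-OHT replicate 2 the 2 distal bins followed with 5 and 6 peaks, but replicate 1 had 1 and 0 there. In TGIF1 4-OHT replicate 1 the bin from 61.9 to 62 Mb came next, with 2 peaks against 3 in the bin of Myc.

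These densities were set beside those of other bins. Over all chromosomes, 13722 bins of 100 kb held a peak of any list. As many MEIS1 peaks as in the bin from 63.4 to 63.5 Mb were found in 0.707% and 8.02% of those bins in the 2 MEIS1 4-OHT libraries, and in 3.81% and 6.49% in the 2 MEIS1 EtOH libraries. For the bin from 63.5 to 63.6 Mb these shares were 5.95% and 8.02% in MEIS1 4-OHT, and 2.19% and 1.84% in MEIS1 EtOH. As many TGIF1 4-OHT peaks as in the bin of Myc were found in 10.5% of bins for replicate 1 and 3.76% for replicate 2. For the 5 TGIF1 4-OHT replicate 2 peaks from 63.4 to 63.5 Mb the share was 12.8%, and for the single replicate 1 peak 45.9%. For the 6 TGIF1 4-OHT replicate 2 peaks from 63.5 to 63.6 Mb it was 8.47%. These shares are descriptions and were not tested.

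**Figure D2:**
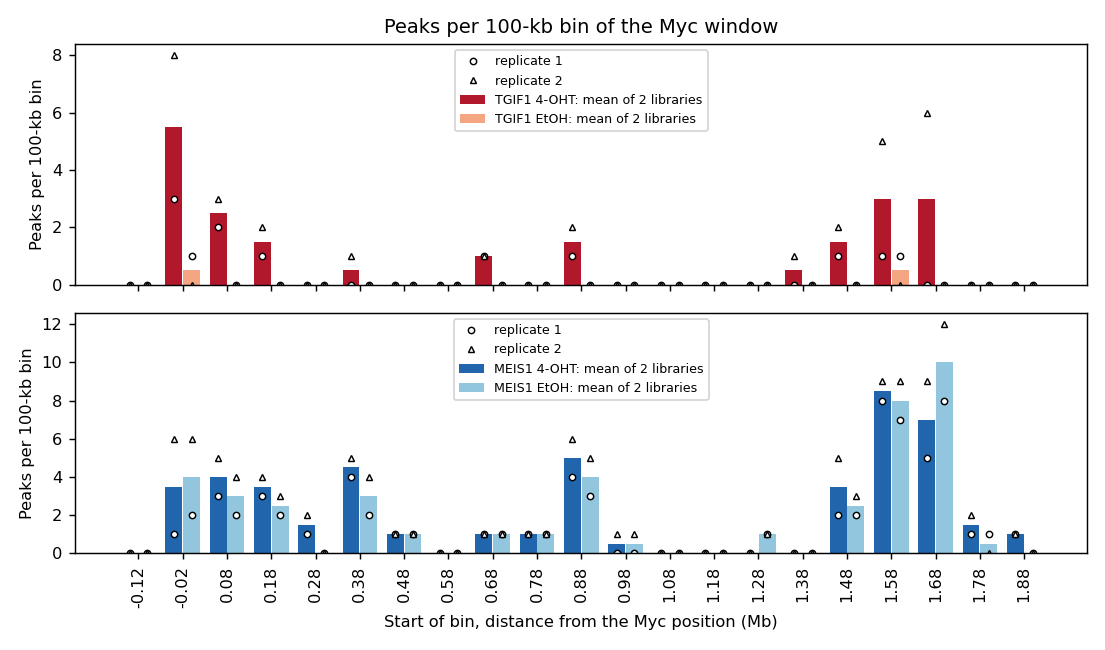
Peaks per 100-kb bin (y axis, counts) against the distance of the bin's start from the Myc position (x axis, Mb), for TGIF1 above and MEIS1 below; bars are means of 2 libraries, and circles and triangles the 2 libraries. Induced TGIF1 peaks at the Myc bin (3 and 8 peaks), and MEIS1 at the 2 bins that start 1.58 and 1.68 Mb downstream (up to 9 and 12 peaks).

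At Myc itself, both proteins had long peaks. The region from 61816238 to 61819821 (3584 bp) carried peaks in 6 of the 8 lists. TGIF1 peaks there were 681 and 2967 bp long in the TGIF1 4-OHT libraries and 218 bp long in TGIF1 EtOH replicate 1, with none in TGIF1 EtOH replicate 2. The 2967-bp peak was the 48th longest of 26932 in its list. MEIS1 had a peak of 2241 bp in MEIS1 4-OHT replicate 2, the 83rd longest of 48829, and none in MEIS1 4-OHT replicate 1. In MEIS1 EtOH replicate 1 it had 1 peak of 429 bp, and in MEIS1 EtOH replicate 2 there were 2, of 1100 and 865 bp. MEIS1 was thus present in 1 of 2 libraries under 4-OHT and in 2 of 2 under EtOH, a difference of 1 library.

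The summits of the 2 proteins were apart at Myc. The TGIF1 summits of the 2 TGIF1 4-OHT libraries lay at 61817968 and 61817973, 5 bp from each other. The single TGIF1 EtOH summit lay 40 bp from the second of these. Counted from the TGIF1 4-OHT replicate 2 summit, the MEIS1 summits were 954 bp away in MEIS1 4-OHT replicate 2, 1442 bp in MEIS1 EtOH replicate 1, and 923 and 310 bp in MEIS1 EtOH replicate 2. All 4 MEIS1 summits were on the side of lower coordinates.

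**Figure D3:**
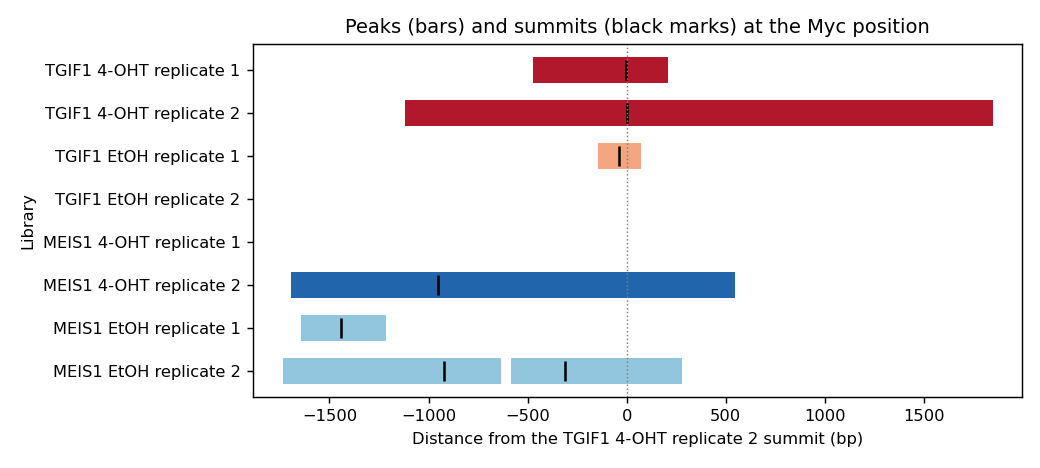
Peaks (bars, to scale) and summits (black marks) of each library at the Myc position, by distance from the TGIF1 4-OHT replicate 2 summit (x axis, bp). The TGIF1 summits fall within 40 bp of each other, and the MEIS1 summits lie 310 to 1442 bp to the left.

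The other 9 regions of the Myc bin were shorter, and each had peaks in at most 4 lists. From 61823813 to 61824319 only MEIS1 was found, in replicate 2 of each treatment. A pair of neighbouring regions, from 61869069 to 61870005 and from 61870429 to 61871728, had TGIF1 peaks in both TGIF1 4-OHT libraries. TGIF1 4-OHT peaks were 627 and 937 bp long in the first of the pair, and 625 and 1300 bp long in the other. MEIS1 was found there in replicate 2 only, under 4-OHT in both regions and under EtOH in the second. The region from 61887394 to 61888560 had a TGIF1 peak in TGIF1 4-OHT replicate 2 and MEIS1 peaks in 1 MEIS1 4-OHT and both MEIS1 EtOH libraries, and the region from 61893147 to 61893723 had MEIS1 peaks in 3 libraries and no TGIF1. The remaining 4 regions, from 61882283 to 61882643, 61885173 to 61885636, 61889167 to 61889481 and 61896019 to 61896412, were single TGIF1 4-OHT replicate 2 peaks with no MEIS1 peak in any list.

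Between the Myc bin and the distal block lay most of the remaining 36 regions, largely with MEIS1. Across these 36, all 4 MEIS1 lists had a peak in 13, beside 26.1% of regions over all chromosomes, a difference that was not tested. Of the 13, 7 also carried TGIF1, beside 8590 of 15835 such regions over all chromosomes, which is about the same share. The same 6 lists, TGIF1 4-OHT and MEIS1 in every library, had a peak in 3 regions: from 62009128 to 62009822, from 62561923 to 62562575 and from 62769158 to 62769747. They lay 189, 742 and 949 kb downstream of the Myc position, and none had a TGIF1 EtOH peak. With the regions at Myc and in the distal block described here, 5 of the window's 70 regions (7.14%) had peaks in at least 6 lists, beside 9.43% over all chromosomes. Pvt1 is the gene that follows Myc, and whether any of these regions lies in it was not determined. No list had a peak over the 395 kb from 62802577 to 63197768. How common such stretches are over all chromosomes was not determined.

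The distal block was defined as the 100-kb bin that lies 1.7 Mb downstream of Myc with the bin on either side, from 63.4 to 63.7 Mb. It held 84 of the window's 221 peaks (38.0%) in 14.3% of the window's length. MEIS1 peaks there numbered 14 and 20 in the MEIS1 4-OHT libraries and 16 and 21 in the MEIS1 EtOH libraries, so the treatments overlapped. TGIF1 peaks there numbered 1 and 11 in the TGIF1 4-OHT libraries and 1 and 0 in the TGIF1 EtOH libraries. As a share of the window's peaks, the block took 10% and 35.5% in TGIF1 4-OHT (mean 22.7 ± 18.0%, SD, n = 2), against 38.9% and 34.5% in MEIS1 4-OHT (mean 36.7 ± 3.12%, SD, n = 2). The difference of -13.9 percentage points was smaller than the spread between the TGIF1 libraries (two-sided exact permutation p = 0.667). It was -1.20 without TGIF1 4-OHT replicate 1 and -26.7 without TGIF1 4-OHT replicate 2.

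One distal region had peaks in 7 of the 8 lists, and it was the only such region in the window. It ran from 63432889 to 63435841 (2953 bp), 1614 kb downstream of the Myc position. TGIF1 peaks of 452 and 1300 bp were present in the TGIF1 4-OHT libraries and a peak of 220 bp in TGIF1 EtOH replicate 1. This peak and that at Myc were the only TGIF1 EtOH peaks in the whole window. MEIS1 had 2 peaks here in 3 libraries: 802 and 618 bp in MEIS1 4-OHT replicate 1, 1494 and 1242 bp in MEIS1 4-OHT replicate 2, and 746 and 562 bp in MEIS1 EtOH replicate 1. In MEIS1 EtOH replicate 2 a single peak of 2917 bp, the 33rd longest of 43564, covered the place of both. This region made up 1.43% of the window's regions, and over all chromosomes 1.85% of merged regions had peaks in exactly 7 lists. The window was thus not richer in such regions than the whole lists.

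In this region the summits of both proteins coincided. The TGIF1 summits were at 63434828 and 63434832 in the TGIF1 4-OHT libraries and at 63434824 in TGIF1 EtOH replicate 1. Each MEIS1 library had a summit within 3 bp of the TGIF1 4-OHT replicate 2 summit. The other MEIS1 peak had its summit 1277 and 1278 bp away in the MEIS1 4-OHT libraries and 1268 bp away in MEIS1 EtOH replicate 1, and no TGIF1 summit lay there.

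**Figure D4:**
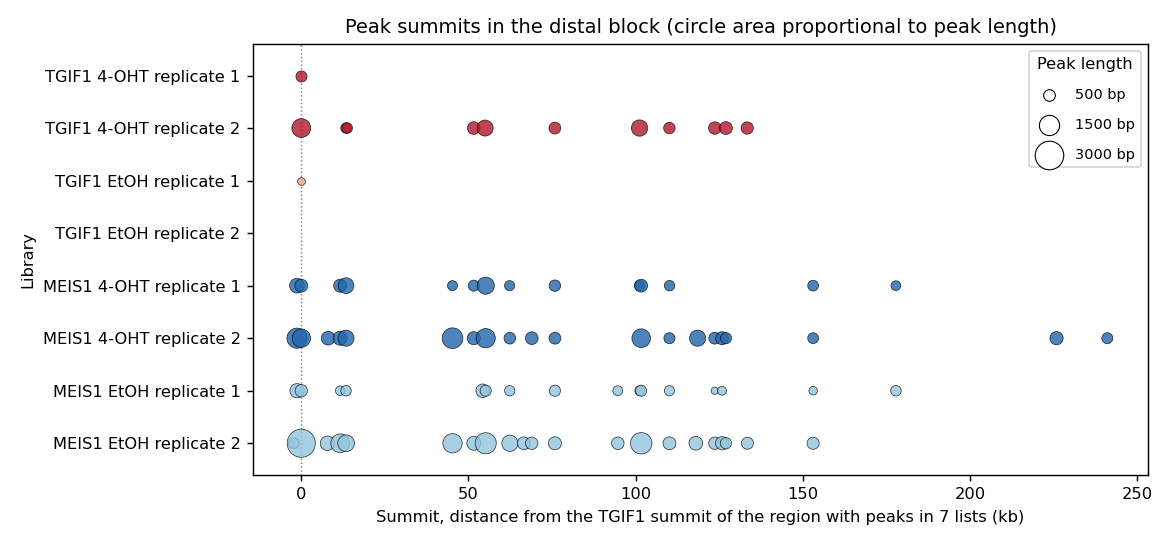
Peak summits in the distal block by library (rows) and distance from the TGIF1 4-OHT replicate 2 summit of the region with peaks in 7 lists (x axis, kb); circle area is proportional to peak length. TGIF1 4-OHT replicate 1 has 1 peak and replicate 2 has 11, while each MEIS1 library has 14 to 21.

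The distal block held 24 regions in all, and MEIS1 was present in every one. In 9 of them all 4 MEIS1 lists had a peak, beside 26.1% of regions over all chromosomes, and 6 of the 9 carried TGIF1, beside 8590 of 15835 over all chromosomes. In total 10 of the 24 regions carried a TGIF1 4-OHT peak, beside 43.8% over all chromosomes, so neither TGIF1 count stood far from the background. Of these, 9 rested on TGIF1 4-OHT replicate 2 alone, so TGIF1 binding in the block beyond the region with 7 lists was not repeated between libraries. Regions with TGIF1 in 1 TGIF1 4-OHT list alone made up 28.6% of the window's regions and 25.4% of those over all chromosomes. Of the 26615 regions over all chromosomes with a TGIF1 4-OHT peak, 11039 had one in both lists. Whether the block differed from this was not tested. No region of the block held TGIF1 without MEIS1, whereas 4 of the 10 regions in the Myc bin did, beside 10% of the window's regions and 10.1% of those over all chromosomes. This contrast rests on single peaks of 1 library and was not tested. Of the 9 merged regions of at least 1 kb in the window, 6 were in the block and 3 in the Myc bin. Regions of at least 1 kb made up 12.9% of the window's regions and 14.6% of those over all chromosomes.

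A pair of other long distal regions was chosen after the values were seen. Both belong to the 5 of the block's 24 regions with MEIS1 in all 4 lists and TGIF1 in 1 TGIF1 4-OHT list alone. Such regions numbered 9 of 70 in the whole window (12.9%), beside 5.66% over all chromosomes, and 4 of the 9 lay outside the block and the Myc bin. This difference was not tested. The region from 63488766 to 63490404 had MEIS1 in all 4 lists, with peaks of 1085 and 1362 bp in MEIS1 4-OHT, 665 and 462 bp in MEIS1 EtOH replicate 1, and 1639 bp in MEIS1 EtOH replicate 2. TGIF1 was found there in TGIF1 4-OHT replicate 2 alone, as a peak of 944 bp. The region from 63535600 to 63537286 likewise had MEIS1 in all 4 lists and a TGIF1 peak of 979 bp in TGIF1 4-OHT replicate 2 alone. Both thus carried MEIS1 with and without induction, and TGIF1 in 1 of the 2 induced libraries.

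Regions with a peak in both libraries of their group were used to compare the proteins. Of the 10 such TGIF1 4-OHT regions in the window, 5 (50%, exact 95% interval 18.7 to 81.3%) overlapped a MEIS1 4-OHT region present in both libraries, beside 51% of the 11143 such TGIF1 regions over all chromosomes. The share that overlapped such a MEIS1 EtOH region was also 5 of 10, beside 60.9% over all chromosomes. Where the MEIS1 library with the shorter list was left out, these shares were 90% (no MEIS1 4-OHT replicate 1) and 80% (no MEIS1 EtOH replicate 1). With only the longer 50% of each list, the share with MEIS1 4-OHT was 20% (1 of 5) and that with MEIS1 EtOH 60% (3 of 5). A TGIF1 EtOH peak was present at 2 of the 10, those at Myc and in the region with 7 lists, beside 21.1%. No MEIS1 peak of any list was found at 1 of the 10, from 63388704 to 63389252, beside 11.1%. With all libraries, these shares were near those of the whole lists. The intervals cover counting error only.

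Seen from MEIS1, 5 of the 34 MEIS1 4-OHT regions present in both libraries (14.7%, exact 95% interval 4.95 to 31.1%) overlapped a TGIF1 4-OHT region present in both libraries, beside 28.8% over all chromosomes, which lies within the interval. A TGIF1 4-OHT peak in at least 1 library was found at 15 of the 34 (44.1%, exact 95% interval 27.2 to 62.1%), beside 49.7%. In the distal block these numbers were 1 and 7 of 12 regions, and in the rest of the window 4 and 8 of 22. With TGIF1 4-OHT replicate 2 as the only TGIF1 list, the first of these shares was also 44.1%. How many MEIS1 regions carried TGIF1 thus depended on the longer TGIF1 list, in the window as over all chromosomes, and the difference between the block and the rest was not tested.

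Few MEIS1 regions differed between treatments. Of the 34 MEIS1 4-OHT regions present in both libraries, 3 (8.82%, exact 95% interval 1.86 to 23.7%) had no MEIS1 EtOH peak, beside 3.22% over all chromosomes. They lay from 62118763 to 62119326, from 62770922 to 62771379 and from 63727587 to 63728161, none with a TGIF1 peak and none in the distal block. Their MEIS1 4-OHT peaks were 448 and 513 bp, 338 and 458 bp, and 325 and 575 bp long, all below the long peaks at Myc and in the distal block. Of the 29 MEIS1 EtOH regions present in both libraries, 2 (6.90%, exact 95% interval 0.846 to 22.8%) had no MEIS1 4-OHT peak, beside 2.91%. These lay from 63197769 to 63198299, in the sparse stretch, and from 63529245 to 63529821, in the distal block, and again neither had a TGIF1 peak. Their MEIS1 EtOH peaks were 220 and 531 bp, and 361 and 577 bp long. Both intervals hold the share of the whole lists. How often regions that differed between treatments carried TGIF1 was not computed over all chromosomes. Of all MEIS1 4-OHT regions present in both libraries, 49.7% had a TGIF1 4-OHT peak over all chromosomes. The lack of TGIF1 at the few differing regions of the window was not tested. The share of MEIS1 4-OHT regions with no EtOH peak was 32.4% if MEIS1 EtOH replicate 2 was left out, and 20.7% if MEIS1 4-OHT replicate 1 was. The share of MEIS1 EtOH regions with no 4-OHT peak was 24.1% if MEIS1 4-OHT replicate 2 was left out.

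MEIS1 summits of overlapping peaks lay close to each other across treatments. Distances between libraries of the same treatment were not computed, so a shift with treatment cannot be read from the medians that follow. Between same-numbered libraries the median distance of MEIS1 4-OHT from MEIS1 EtOH summits of overlapping peaks was 17.5 bp over 26 pairs in replicate 1 and 13 bp over 47 pairs in replicate 2, against 16 and 13 bp over all chromosomes.

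Where peaks of the 2 proteins overlapped, their summits were mostly close. Over the 54 overlapping pairs of a TGIF1 4-OHT and a MEIS1 4-OHT peak in the window, the median distance was 18.5 bp, and 44 pairs were within 50 bp. Over all chromosomes, 59.9 to 66.3% of such pairs were within 50 bp, depending on the libraries. For each TGIF1 4-OHT library set against each MEIS1 library (8 combinations), the median ranged from 13 to 26 bp in the window and from 28 to 31 bp over all chromosomes. These pairs share peaks and libraries, so the medians are descriptions. Of the 23 regions with overlapping peaks, 20 had at least 1 pair of summits within 50 bp. The exceptions were the region at Myc (nearest pair 305 bp), the distal region from 63488766 to 63490404 (169 bp) and that from 63567950 to 63568506 (61 bp). This count takes the nearest of all library pairs, and the same share was not computed over all chromosomes. Other pairs of a region could lie further apart: from 63535600 to 63537286 the distances ran from 26 to 496 bp.

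**Figure D5:**
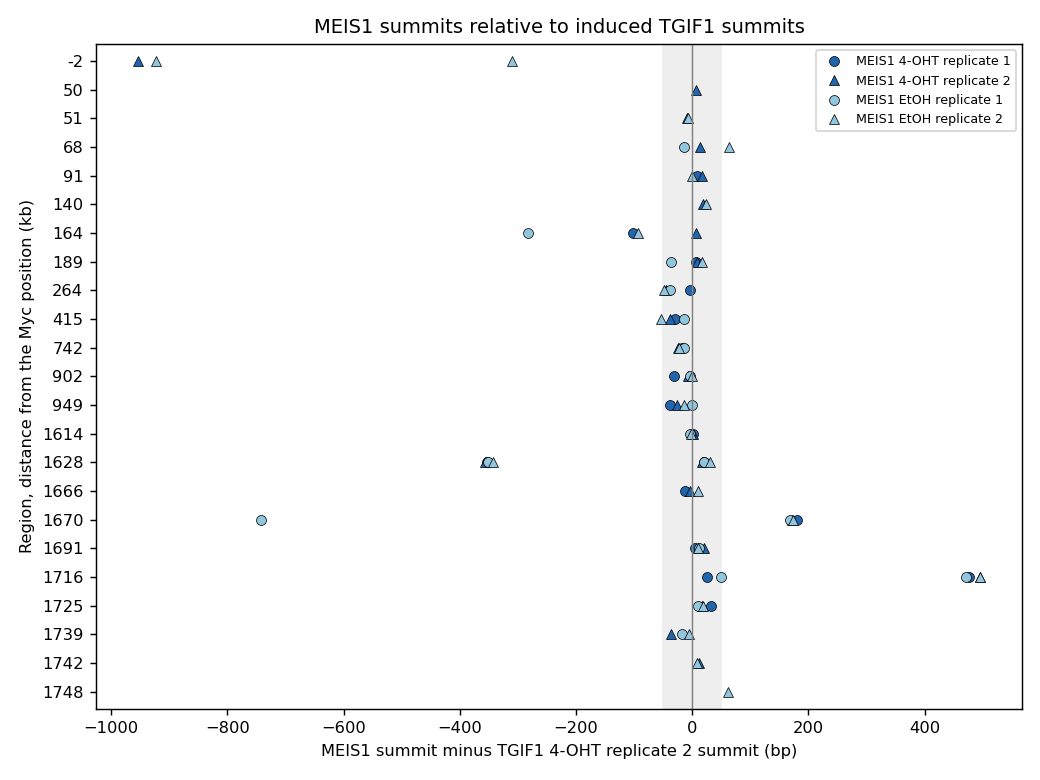
Position of MEIS1 summits relative to the TGIF1 4-OHT replicate 2 summit of the overlapping peak (x axis, bp) in the 23 regions with both (rows, labelled by distance from the Myc position in kb; grey marks 50 bp on either side). Most points lie in the grey band, and the region at Myc, in the top row, lies 310 to 954 bp to the left.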

How the data were processed

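Peaks of TGIF1 and MEIS1 were taken from the 8 deposited lists, 1 per library. Per the submitters' processing notes, Bowtie 0.12.7 and the mm9 build were used. Per the file headers, MACS 1.4.2 called the peaks of MEIS1 4-OHT replicate 2. For the remaining 7 lists no caller is named, and thresholds and control libraries were not given in the sources used here. The deposited values are start, end, length and summit offset in bp, counted from 1. The window, the lists compared and the rules were chosen with earlier results of these data known.

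Overlap meant at least 1 bp. By rule, regions named were those of the Myc bin, distal regions in at least 6 lists and regions with a TGIF1 EtOH peak. The rule also took MEIS1 regions present in both libraries of 1 treatment and absent from the other, and repeated TGIF1 4-OHT regions without MEIS1. Named outside this rule were the window's other regions in at least 6 lists and the pair of long distal regions chosen after the values were seen. So were regions with both proteins but no pair of summits within 50 bp. Counts were compared by two-sided exact permutation of libraries, and shares were given exact (Clopper-Pearson, 95%) intervals. Alternatives were a reciprocal overlap of 50%, summits within 200 bp, the union of libraries, the longer 50% of each list, lists trimmed to their longest peaks at equal length (592 peaks for TGIF1, 21173 for MEIS1), each library left out, a replicate block, summits inside the window, and other distal blocks (5 bins, or bins moved by 50 kb). Software was Python 3.11.15, scipy 1.17.1, pandas 2.3.3 and numpy 2.4.6. The overlap code recovered planted overlaps in simulated data and equalled bedtools 2.31.1 in 56 of 56 counts. A sequence and annotation of mm9 were not used here.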

Additional observations from a re-analysis of the deposited data

How the results depend on the processing

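Of 101 recomputed values for 13 results, 3 changed sign and 31 others lay over 1.5 times from the value given. The 2-against-2 design could not pass 0.05, so the tests say nothing about stability. Leaving out single libraries gave 9 to 30 for the TGIF1 difference in peaks, 0.264 to 0.987 for that per 1000, -6 to 16 for MEIS1 peaks and -0.026 to 0.487 for those per 1000. It gave 50 to 90% for TGIF1 regions with MEIS1 4-OHT (highest without MEIS1 4-OHT replicate 1) and 40 to 80% with MEIS1 EtOH. For MEIS1 4-OHT regions with TGIF1 it gave 13.9 to 44.1% (highest without TGIF1 4-OHT replicate 1). The share of MEIS1 EtOH regions absent under 4-OHT ranged from 6.06 to 24.1%, and of MEIS1 4-OHT regions absent under EtOH from 8.33 to 32.4%. The union of libraries gave 37.3% for MEIS1 4-OHT regions with TGIF1, 74.2% for TGIF1 regions with MEIS1 4-OHT and 20.3% for MEIS1 4-OHT regions absent under EtOH. The longer part of each list gave 6.67% for MEIS1 4-OHT regions with TGIF1, 20% (1 of 5) for TGIF1 regions with MEIS1 4-OHT, 0.364 for MEIS1 per 1000, 35% for the distal share of TGIF1 and -5.31 for its difference from MEIS1. A reciprocal overlap of 50% gave 9.68% for MEIS1 4-OHT regions with TGIF1, and a bin grid moved by 50 kb gave -7.86 for the distal difference. Lists of equal length, which kept few TGIF1 peaks, gave 0% for MEIS1 4-OHT regions with TGIF1, 0% of MEIS1 EtOH regions absent under 4-OHT, 5.88% of MEIS1 4-OHT regions absent under EtOH, and a summit distance of 954 bp from 1 pair. The TGIF1 difference in peaks was then 0.5, and 8.5 with the longer part of each list. No TGIF1 region present in both lists of equal length was left in the window, so no share could be given. For the distal share of MEIS1 4-OHT peaks, the longer part of each list gave 40.3%, lists of equal length 40.1% and a block of 5 bins 46.0%; the cause was not tested.

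The groups use the same replicate numbers; the labels give no pairing behind them. Replicate 1 minus replicate 2, per 100-kb bin and 1000 peaks, correlated between treatments with r = -0.014 for TGIF1 and 0.448 for MEIS1 over 13722 bins. With a replicate block the differences were again 19.5 and 0.626 for TGIF1, 5 and 0.230 for MEIS1 and -13.9 for the distal share. With 2 libraries in each group they are the same by construction. These values, which are among the 101 recomputed, therefore say nothing about stability. Exact sign-flip p was 0.5 in the first 4, the smallest value that 2 pairs allow, and 1.0 in the last.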
